A study of Homo sapiens with 24 samples.

Results

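NKX2-1 is a homeodomain transcription factor of the ventral forebrain, thyroid and lung, and the counts under its name, under NKX2-1-AS1 on the opposite strand and under the LIM homeodomain genes LHX6 and LHX8 were followed here across 24 RNA libraries. The 4 genes were taken by name out of 61248 features in each count table, and all 4 were found in all 24 libraries. The libraries came from the human embryonic stem cell line H7. At day 14, as neural progenitors differentiated toward ventral fates, there were 6 libraries from BRAT1 knockout cells (2 lines with 3 biological replicates, A to C) and 6 from control cells (2 lines with 3 replicates). At day 0, as undifferentiated stem cells, there were 6 knockout and 6 control libraries from the same 4 lines. BRAT1 is a scaffold protein that binds the catalytic subunits of the Integrator complex, which cleaves nascent RNA. The labels do not say whether a line is a single clone, how the knockouts were made or which agents drove the differentiation. Replicates of a line share its editing history, so p-values over libraries measure the spread among these libraries and not among independently edited lines.

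In mouse embryos Nkx2-1 specifies the medial ganglionic eminence (MGE), the part of the ventral telencephalon that gives rise to many cortical interneurons and to cholinergic neurons, and it is also needed in the ventral hypothalamus. Sonic hedgehog induces it there. Lhx6 and Lhx8 are activated downstream of Nkx2-1 in the mouse MGE; Lhx6 directs the interneuron lineage and Lhx8 the cholinergic one. NKX2-1-AS1 is a noncoding RNA gene that overlaps NKX2-1 head to head and is of uncertain function in the brain.

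At day 14 the counts under NKX2-1 and NKX2-1-AS1 were many-fold higher in both knockout lines than in both control lines. Counts under LHX6 were higher too, but far fewer. LHX8 had at most 3 counts in 11 of the 12 day 14 libraries. At day 0 none of the 12 libraries held a read under NKX2-1 or NKX2-1-AS1.

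Library totals lay between 2228736 and 3726227 counts at day 14, with 20769 to 25247 features seen, and between 1407832 and 2143871 counts at day 0, with 9299 to 15116 features seen. Day 0 libraries were thus shallower and held fewer features. BRAT1, the targeted gene, had 21 to 63 counts in knockout line 1 and 227 to 262 in knockout line 2, against 414 to 1077 in the 6 control libraries at day 14. The log2 change was -2.47 (SE 0.57, edgeR quasi-likelihood adjusted p = 0.0111), and knockout line 2 held more than line 1, at 80.5 ± 2.42 CPM against 12.1 ± 3.84 CPM (SD, n = 3 each; edgeR adjusted p = 1.09e-09). Summing the counts of each line ended the call on BRAT1 (edgeR adjusted p = 0.354), and so did leaving out control line 1 (0.0914) or control line 2 (0.0834). At day 0 BRAT1 had at most 10 counts in any library, so the labels could not be checked there. Among markers of the labelled cells, POU5F1, the pluripotency factor, had 87 counts in knockouts and 49 in controls at day 14 against 417 in knockouts and 368 in controls at day 0. TDGF1, ZFP42, DNMT3B, L1TD1 and TERF1 also had fewer counts at day 14 in both genotypes. LIN28A had more, with 1084 in knockouts and 1215 in controls against 137 and 113 at day 0, and so did DPPA4. NANOG had more in knockouts (33 against 2) and fewer in controls (3 against 31). These sums are not scaled for depth. The neural progenitor gene NES, an intermediate filament, had 5038 counts in knockouts and 2168 in controls at day 14 against 244 in knockouts and 396 in controls at day 0.

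NKX2-1 (ENSG00000136352) lies on the minus strand at chr14:36516392-36521149 in GRCh38, as placed by GENCODE release 29, and its merged exons span 3165 bp. NKX2-1-AS1 (ENSG00000253563) lies on the plus strand at chr14:36519278-36523016 with 1775 bp of exon in 2 blocks. Its first block, chr14:36519278-36519679, lies wholly inside an exon of NKX2-1, so 402 bp of exon are shared on opposite strands, and its second block of 1373 bp lies upstream of the annotated NKX2-1 start. SFTA3, a gene of the surfactant family of lung, runs in the same direction as NKX2-1 and begins inside it, with a first exon of 54 bp within the same shared stretch. The next coding gene upstream is NKX2-8, a paralogue of NKX2-1. LHX6 (ENSG00000106852, minus strand, chr9:122202577-122229626) has no annotated gene on its other strand. LHX8 (ENSG00000162624, plus strand, chr1:75128434-75161533) has 2 antisense genes, ENSG00000224149 and ENSG00000224127, and both were at 0 counts in every library.

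**Figure D1:**
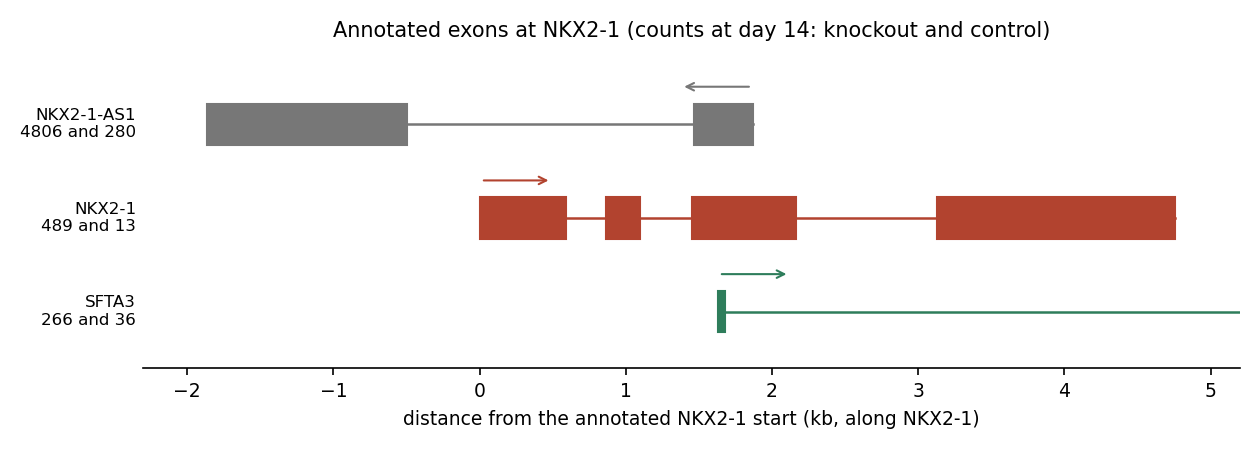
Exons annotated at NKX2-1 (boxes) and gene bodies (lines) by distance in kb from the annotated NKX2-1 start, counted along NKX2-1, with an arrow for the direction of each gene and, beside each name, the counts summed over the 6 knockout and the 6 control libraries at day 14. Most counts stood under NKX2-1-AS1 (4806 in knockouts and 280 in controls), whose exon at 1.47 to 1.87 kb lies inside an NKX2-1 exon.

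A promoter window of each of the 2 genes overlaps the shared stretch in part. RefSeq promoter windows on GRCh38.p14, from 250 bases before to 50 after a start site, were read for all 4 genes, 8 windows in all, and searched on both strands for CTCAAG, the core that NKX2-1 binds in thyroid gene promoters. The motif stood in 1 of the 2 NKX2-1 windows (minus strand, chr14:36519507-36519806), 24 bases after the start site, and in the NKX2-1-AS1 window (plus strand, chr14:36519028-36519327), 28 bases after the start site. It was in none of the 3 LHX6 and 2 LHX8 windows and not in the other NKX2-1 window. Of 34796 promoter windows of the same length in the table, 4291 (12.3%) hold it. A match of 6 letters is a description of the sequence and not a binding site. The 2 windows are shown 5′ to 3′ because they lie at the overlap of the 2 genes and carry the motif, which is in capitals.
NKX2-1 window: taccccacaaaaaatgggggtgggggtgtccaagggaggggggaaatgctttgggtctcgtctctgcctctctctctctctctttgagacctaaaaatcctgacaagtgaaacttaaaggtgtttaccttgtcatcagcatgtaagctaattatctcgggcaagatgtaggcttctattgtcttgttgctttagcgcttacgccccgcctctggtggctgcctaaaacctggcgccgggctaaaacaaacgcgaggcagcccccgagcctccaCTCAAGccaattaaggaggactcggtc
NKX2-1-AS1 window: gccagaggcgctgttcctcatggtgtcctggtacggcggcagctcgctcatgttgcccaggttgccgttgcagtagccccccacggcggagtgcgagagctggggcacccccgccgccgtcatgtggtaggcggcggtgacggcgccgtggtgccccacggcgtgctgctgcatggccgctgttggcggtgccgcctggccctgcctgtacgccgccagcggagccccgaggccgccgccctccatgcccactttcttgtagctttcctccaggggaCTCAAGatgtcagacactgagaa

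Strand bears on how each count at this locus can be read. In 1463 of 2120 overlapping pairs (69.0%) the antisense member had more counts than its coding partner. The nuclear RNA MALAT1, among the most abundant transcripts of most cells, took 0.00444% of all counts, while TALAM1, its antisense partner, took 6.91%. In most such pairs, and at MALAT1, more counts thus stood under the opposite-strand name than under the gene itself. Reads from NKX2-1 RNA that fall in the 402 bp shared with NKX2-1-AS1 and reads from NKX2-1-AS1 itself cannot be told apart. Counts under NKX2-1-AS1 may therefore be largely NKX2-1 RNA, and those under NKX2-1 reads from the other strand. This was not tested. The counts are given under the names they carry, and no direction of transcription is read from them. Higher counts under both names are not read as separate rises of NKX2-1 and NKX2-1-AS1.

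NKX2-1-AS1 held most of the counts at the locus. From A to C its counts were 629, 748 and 1144 for knockout line 1 and 800, 646 and 839 for knockout line 2, against 29, 32 and 42 counts for control line 1 and 103, 44 and 30 for control line 2. All 6 knockout libraries lay far above all 6 control libraries, and control line 2 replicate A was the highest of the controls. In CPM, counts scaled to library size with TMM factors that allow for composition, NKX2-1-AS1 averaged 264 ± 23.8 CPM in knockouts and 14.7 ± 7.37 CPM in controls (SD, n = 6 each). This is a 17.8-fold difference, or 4.15 on the log2 scale (SE 0.22, edgeR quasi-likelihood adjusted p = 8.22e-13). The 6 knockout libraries differed little among themselves, from 222 to 287 CPM.

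Far fewer counts stood under NKX2-1 itself. Knockout line 1 had 45, 29 and 173 counts (A to C) and knockout line 2 had 63, 68 and 111, while control line 1 had 2, 0 and 7 and control line 2 had 0, 3 and 1. The knockout and control libraries did not overlap here either, but the knockout libraries spread over a wider range, from 11.1 to 43.2 CPM, with both extremes in line 1. The mean was 25.3 ± 11.5 CPM in knockouts and 0.706 ± 0.862 CPM in controls (SD, n = 6 each), and 2 of the 6 control libraries held no read. On the log2 scale the difference was 5.11 (SE 0.53), with an edgeR adjusted p of 6.83e-08. NKX2-1 passed the filter on low counts through the knockout libraries, and the 13 control counts make the size of the fold uncertain, with a ratio of 39.5 by summed counts and a 95% counting interval of 22.9 to 74.7 that covers counting error only.

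The counts under both names are read against the whole table. Of 11408 features tested at day 14, 2474 (21.7%) passed, of which 1256 (11.0% of those tested) were higher in knockouts, and in 537 features (4.71%) all 6 knockout libraries lay above all 6 control libraries. Counts under NKX2-1 and under NKX2-1-AS1 both passed and had no overlap, which is not read as separate rises of both genes. Per kb of exon, NKX2-1-AS1 stood at 149 ± 13.4 CPM per kb, SFTA3 at 12.9 ± 2.79, NKX2-1 at 7.99 ± 3.64, LHX6 at 0.682 ± 0.568 and LHX8 at 0.373 ± 0.737 in knockouts at day 14 (SD, n = 6). In this order of levels NKX2-1-AS1 stood clear of the rest, SFTA3 lay above NKX2-1 in all 6 knockout and all 6 control libraries, and LHX6 and LHX8 lay close to each other relative to their spread. In controls the same values were 8.31 ± 4.15 CPM per kb for NKX2-1-AS1, 1.64 ± 0.753 for SFTA3, 0.223 ± 0.272 for NKX2-1, 0.0430 ± 0.0804 for LHX6 and 0.0496 ± 0.0592 for LHX8. In RNA from whole cultures a larger share of cells expressing a gene and more RNA per cell cannot be told apart.

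**Figure D2:**
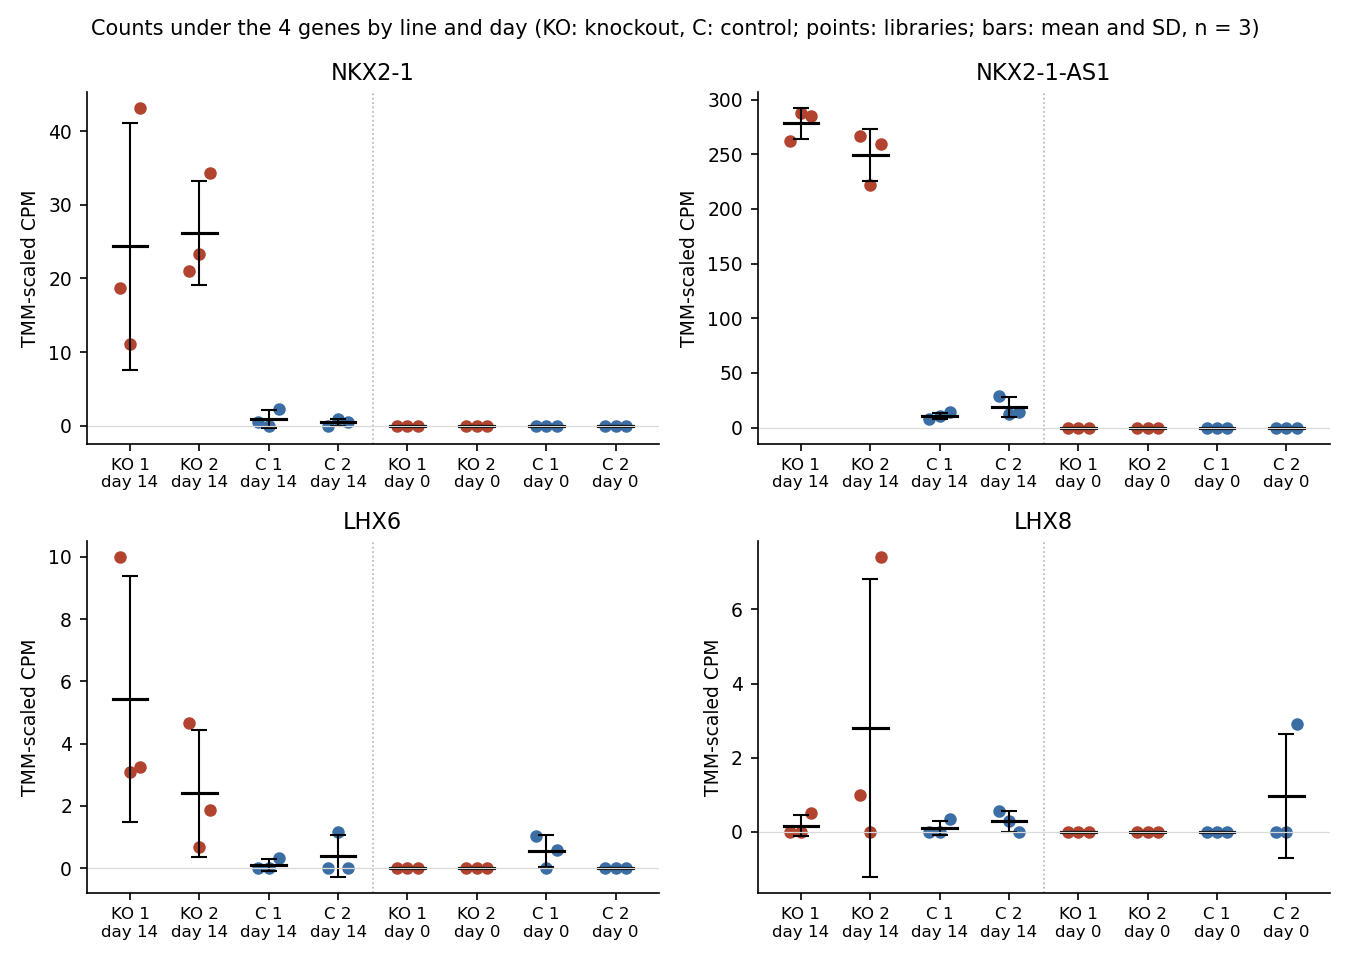
TMM-scaled CPM (vertical axes, each from its own scale) of NKX2-1, NKX2-1-AS1, LHX6 and LHX8 in the 2 knockout lines (KO) and the 2 control lines (C) at day 14 and at day 0; points are libraries and bars give the mean and SD of 3. At day 14 every knockout library lay above every control library for NKX2-1 (11.1 to 43.2 CPM against 0 to 2.33) and NKX2-1-AS1 (222 to 287 CPM against 8.22 to 29.02), and at day 0 both were at 0 throughout.

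Among the knockout libraries, counts under NKX2-1 were set beside the percent of counts that each library holds under coding genes opposite an antisense gene. Counts under NKX2-1 as a percent of those under NKX2-1-AS1 were 7.15%, 3.88% and 15.1% for knockout line 1 and 7.87%, 10.5% and 13.2% for line 2, against 6.90%, 0% and 16.7% for control line 1 and 0%, 6.82% and 3.33% for line 2. The median of the same percent over 882 antisense and coding pairs of each library was 5.38%, 5.36% and 9.16% for knockout line 1. It was 7.72%, 6.75% and 9.28% for line 2, and 3.91 to 5.63% in the control libraries. These pairs had at least 1000 day 14 counts under the antisense gene and more there than under the coding gene. That choice in part sets a low percent. Among knockouts the library lowest in one measure was lowest in the other, and the 2 highest libraries in one were the 2 highest in the other. Over all day 14 libraries the percent over these pairs was higher in knockouts, at 7.28 ± 1.75% against 4.94 ± 0.660% in controls (SD, n = 6 each; two-sided exact permutation p = 0.0152). With that percent held as a covariate the difference remained past the threshold for NKX2-1 (log2 fold change 4.18, edgeR adjusted p = 4.15e-06) and NKX2-1-AS1 (4.17, 4.79e-09). Without the 4 knockout libraries whose percent lay above every control library, a setting chosen after seeing the data that leaves 2 libraries of knockout line 1, NKX2-1 gave 4.31 (edgeR adjusted p = 0.000324) and NKX2-1-AS1 4.18 (8.96e-07).

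The share of the locus counts that stood under NKX2-1, its counts out of those under both names, did not differ detectably by genotype. It was 8.68 ± 3.46% in knockouts and 5.06 ± 5.35% in controls (SD, n = 6 each; two-sided exact permutation p = 0.197). Pooled over libraries it was 9.24% in knockouts and 4.44% in controls. Control libraries held only 31 to 103 reads at the locus, and control line 1 replicate C alone, at 14.3% (95% exact binomial interval 5.94 to 27.2%), decided the outcome of the test. Without that library the difference was 5.46 percentage points (exact permutation p = 0.0216).

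**Figure D3:**
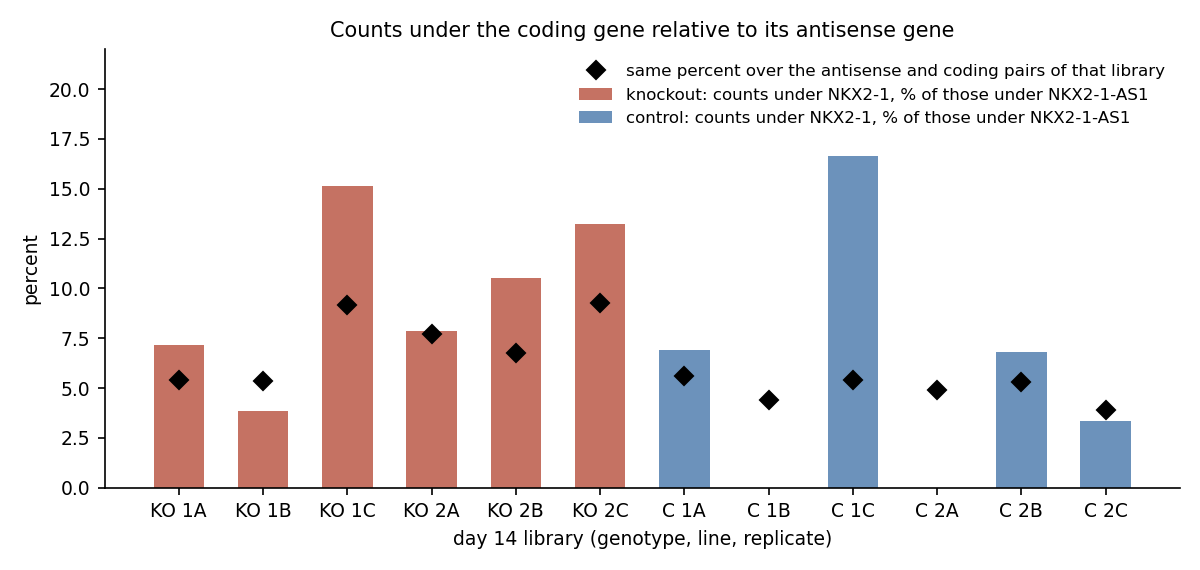
Counts under NKX2-1 as a percent of those under NKX2-1-AS1 (bars) in each of the 12 day 14 libraries. Diamonds give the median of the same percent over 882 antisense and coding pairs of that library. The pairs were chosen for more day 14 counts under the antisense gene. Among knockouts (KO) the bars ranged from 3.88% to 15.1% and were highest in the 2 libraries with the highest diamonds, and 2 control libraries (C) had no read under NKX2-1.

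Both knockout lines contributed to the difference. For NKX2-1 the log2 fold change was 4.58 (SE 0.72) and 5.61 (SE 0.80) for knockout line 1 against control lines 1 and 2, and 4.67 (SE 0.72) and 5.70 (SE 0.80) for knockout line 2 against the same lines, with edgeR adjusted p between 8.39e-06 and 5.43e-05. NKX2-1-AS1 gave 4.62, 3.81, 4.46 and 3.64 in the same order, each with SE of 0.25 to 0.27 and adjusted p at or below 2.69e-12. In these pairings 3.75%, 5.33%, 2.64% and 4.30% of 15000 features were called higher in the knockout line. Between knockout line 2 and line 1 the log2 difference was 0.09 (SE 0.55, adjusted p = 0.982) for NKX2-1 and -0.17 (SE 0.22, adjusted p = 0.877) for NKX2-1-AS1, in a comparison that called 1.23% of features. Between control line 2 and line 1 it was -1.03 (SE 1.01, adjusted p = 1) for NKX2-1 and 0.81 (SE 0.26, adjusted p = 0.729) for NKX2-1-AS1, where 0.107% were called. The lines of a genotype thus differed by less than the genotypes did, although 3 libraries a line leave wide errors for NKX2-1 in controls.

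**Figure D4:**
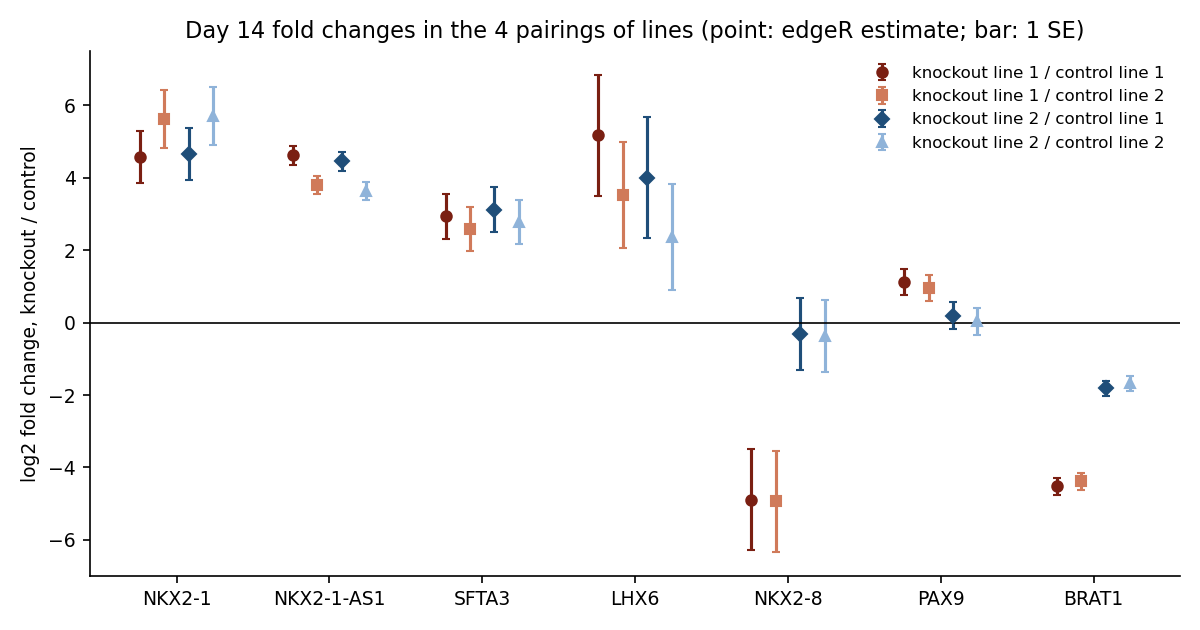
Log2 fold change at day 14 of each knockout line over each control line, from edgeR, with bars of 1 SE, for the genes of the NKX2-1 locus, LHX6, neighbouring genes and BRAT1 (LHX8 was below the filter). NKX2-1, NKX2-1-AS1, SFTA3 and LHX6 lay above 0 in all 4 pairings, whereas NKX2-8 was below 0 against both control lines in knockout line 1 (-4.89 and -4.94) and near 0 in knockout line 2 (-0.31 and -0.36), where replicate C held 30 of its 36 counts.

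The neighbours of NKX2-1 did not move as a block. SFTA3, which starts inside NKX2-1, held 36, 22 and 68 counts for knockout line 1 and 43, 49 and 48 for line 2, against 7, 4 and 5 for control line 1 and 12, 6 and 2 for line 2. The genotypes did not overlap, and SFTA3 was 7.56-fold higher (log2 2.92, SE 0.41, edgeR adjusted p = 6.94e-06). NKX2-8, the paralogue upstream, was below the filter, with 1, 0 and 0 counts for knockout line 1 and 5, 1 and 30 for line 2, against 11, 8 and 23 for control line 1 and 15, 26 and 4 for line 2. It averaged 1.95 ± 3.64 CPM in knockouts and 4.49 ± 2.50 CPM in controls (SD, n = 6 each; two-sided exact permutation p = 0.177), and knockout line 2 replicate C, at 9.26 CPM, lay above the highest control library while replicates A and B of that line were at 1.67 and 0.343 CPM. PAX9, a paired-box factor of pharyngeal and tooth development, stood at a log2 change of 0.71 (SE 0.29, adjusted p = 0.0756). SLC25A21, a mitochondrial carrier gene whose end overlaps that of PAX9 on the other strand, fell by 0.81 on the log2 scale (SE 0.24, adjusted p = 0.0136). MIPOL1 rose by 2.51 on the log2 scale (SE 0.73, edgeR adjusted p = 0.0133), on 112 counts in knockouts and 20 in controls. Of the 11 genes listed near NKX2-1, 6 were tested, 2 were higher and 1 lower, where 11.0% of all features tested were higher. Their median log2 fold change was 0.40, against 0.07 over all features tested. SFTA3 and MIPOL1, with 36 and 20 control counts, passed the filter on low counts mainly through the knockout libraries. With the strand percent described above as a covariate, MIPOL1 and SLC25A21 did not pass, SFTA3 did (edgeR adjusted p = 0.000738) and PAX9 gained a call (log2 change 1.29, edgeR adjusted p = 0.00888).

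LHX6 was detected in every knockout library at day 14, at low counts. In most overlapping pairs the antisense name held more counts, and no gene is annotated opposite LHX6. Reads on that strand would be in no count, so low counts under LHX6 are not read as low expression. Its counts were 24, 8 and 13 for knockout line 1 and 14, 2 and 6 for line 2, against 0, 0 and 1 for control line 1 and 0, 4 and 0 for line 2. The groups overlapped at 1 point, since control line 2 replicate B (1.15 CPM) lay above knockout line 2 replicate B (0.687 CPM). LHX6 was below the filter on low counts, so its CPM was tested alone. It averaged 3.92 ± 3.27 CPM in knockouts and 0.247 ± 0.462 CPM in controls (SD, n = 6 each), and the two-sided exact permutation p was 0.00433, where 0.00216 is the smallest that 6 against 6 libraries can give. By summed counts the ratio was 14.1, with a 95% counting interval of 5.73 to 44.7. In an edgeR fit with no filter the log2 fold change was 3.63 (adjusted p = 0.0122). By pairs of lines it was 5.17, 3.53, 4.01 and 2.36, with SE of 1.45 to 1.68, and only knockout line 1 against control line 1 passed (adjusted p = 0.0431). A pooled count of 0 would allow up to 0.156 CPM by total counts in controls, so their 5 counts lie close to the limit of detection.

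LHX8 showed no difference that held beyond 1 library. Its counts were 0, 0 and 2 for knockout line 1 and 3, 0 and 24 for line 2, against 0, 0 and 1 for control line 1 and 2, 1 and 0 for line 2. The mean was 1.49 ± 2.93 CPM in knockouts and 0.197 ± 0.235 CPM in controls (SD, n = 6 each; two-sided exact permutation p = 0.348). The log2 ratio of the mean CPM was 2.91 with all libraries and 0.60 without knockout line 2 replicate C (exact permutation p = 0.697), and it was -0.25 without knockout line 2. The same library was the highest in NKX2-8 and the lowest knockout library in SHH. In an edgeR fit with no filter LHX8 stood at a log2 change of 2.55 (adjusted p = 0.215).

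At day 0 the locus was not detected at the depth reached. No read stood under NKX2-1 or NKX2-1-AS1 in the 6 knockout or the 6 control libraries, which allows up to 0.278 CPM by total counts over the pooled knockouts and 0.294 CPM over the pooled controls. LHX6 had 0 counts in knockouts and 3 in controls, and LHX8 had 0 counts in knockouts and 4 in controls. None of the 4 genes passed the filter at day 0, a comparison in which 0 of 4832 features tested were called by edgeR, 0 by DESeq2 and 99 had an unadjusted p under 0.05.

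At day 14 the locus had counts in both genotypes, where it had none at day 0. Absence at day 0 was not particular to it, since the day 0 libraries held 9299 to 15116 features against 20769 to 25247 at day 14, and BRAT1 in control cells had 4898 counts at day 14 against 8 at day 0 (log2 change 7.73, edgeR adjusted p = 1.77e-07). NKX2-1-AS1 was at least 942-fold higher at day 14 than at day 0 in knockouts and at least 49.5-fold higher in controls, each per total counts against the 3 counts that a pooled total of 0 allows. With the counting error of both totals included, the 95% lower limit was 766-fold in knockouts and 40.0-fold in controls. NKX2-1 was at least 95.8-fold higher at day 14 in knockouts by the same floor, with a lower limit of 77.7-fold, and in controls it had 13 counts at day 14 and 0 at day 0. The edgeR test of day 14 against day 0 called NKX2-1-AS1 in knockouts (adjusted p = 2.61e-12) and in controls (2.36e-08), and called NKX2-1 in knockouts (1.99e-05) but not in controls (0.0508). In controls NKX2-1 rested on 13 counts over 4 libraries (two-sided exact permutation p = 0.0606), and it passed in 9 of 28 alternatives, RLE scaling among them (edgeR adjusted p = 0.0385), with adjusted p from 0.0328 to 0.117. Features higher at day 14 made up 29.8% of 10971 tested in knockouts and 28.4% in controls. LHX6 was at least 13.1-fold higher at day 14 than at day 0 in knockouts by that floor, with a lower limit of 10.4-fold (67 counts against 0, two-sided exact permutation p = 0.00216), and in controls it had 5 counts at day 14 against 3 at day 0 (p = 1). LHX8 had 29 counts at day 14 against 0 at day 0 in knockouts (exact permutation p = 0.182) and 4 against 4 in controls. The interaction of genotype and day was not called in edgeR, with a log2 estimate of 5.06 for NKX2-1 and 4.16 for NKX2-1-AS1 and an adjusted p of 1.00 for both. With both day 0 groups at 0, these estimates depend on the prior count. DESeq2 called both, with adjusted p of 0.0221 for NKX2-1 and 0.0160 for NKX2-1-AS1, and it was the only one of 28 alternatives to do so.

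The features whose log2 CPM followed NKX2-1 most closely over the 12 day 14 libraries were TPBG (Pearson r 0.978), SIX3 (0.977), FEZF2 (0.958), SIX3-AS1 (0.956) and LINC00607 (0.955). SIX3 is a homeodomain factor of the anterior forebrain and eye field, and FEZF2 a zinc-finger factor of the forebrain. FEZF2 averaged 28.5 ± 11.0 CPM in knockouts and 0.563 ± 0.500 CPM in controls, and SIX3 84.6 ± 29.1 CPM in knockouts and 8.32 ± 5.14 CPM in controls (SD, n = 6 each). The features closest to NKX2-1-AS1 were MT-TE (0.992), a mitochondrial transfer RNA gene, AFDN-DT (0.992), ENSG00000235902 (0.982), LINC02538 (0.981) and ENSG00000279437 (0.979). These coefficients rest largely on the gap between the genotypes, since the libraries form 2 groups. Within the 6 knockout libraries r with NKX2-1 was 0.853 for TPBG, 0.907 for SIX3, 0.577 for FEZF2, 0.198 for SIX3-AS1 and -0.369 for LINC00607. Within the same 6 libraries NKX2-1 and NKX2-1-AS1 had an r of -0.09, and NKX2-1 and SFTA3 one of 0.80. No test was run on these coefficients, and all points share the library's depth and strand percent.

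Genes that act with NKX2-1 in the mouse MGE were counted from lists of 160 genes found in the tables, of which 70 were tested at day 14. Of 22 transcription factors of the MGE and subpallium, 11 were tested, 7 were higher in knockouts and none lower. Over all 11408 features tested, 1256 (11.0%) were higher and 1218 lower. The median log2 fold change was 2.47 for the list against 0.07 over all features tested. The DLX genes, homeodomain factors needed to make GABAergic neurons, led the list. DLX1 averaged 59.5 ± 28.2 CPM in knockouts and 0.229 ± 0.264 CPM in controls (SD, n = 6 each; log2 fold change 7.87, edgeR adjusted p = 7.57e-12). DLX2 had 238 counts in knockouts and none in controls, which puts it at least 83.2-fold higher per total counts against the floor of 3 counts (67.2-fold with counting error included), and DLX5 had 458 counts in knockouts and 2 in controls (adjusted p = 1.2e-09). Like NKX2-1, these 3 DLX genes passed the filter on low counts through the knockout libraries, with 4, 0 and 2 control counts for DLX1, DLX2 and DLX5, so their calls and the list's median are a description of the genes that passed. SIX3 stood at a log2 change of 3.34 (SE 0.35, adjusted p = 1.43e-06). MAF, a factor of interneuron development named after its values were seen, also rose (log2 change 1.52, SE 0.50, edgeR adjusted p = 0.0283). Not every subpallial gene followed: NKX6-2 stood at -0.22 (SE 0.30, adjusted p = 0.64), ISL1 had 1 count in knockouts and 25 in controls, and GBX2 had 4 counts in knockouts and 75 in controls. With the strand percent as a covariate 5 of the 11 passed.

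Markers of the neurons that derive from the MGE were mixed. Of 17 genes listed, 9 were tested, 5 were higher and 1 lower, where 1256 of all 11408 features tested (11.0%) were higher and 1218 lower, and the median log2 fold change was 1.27. RELN, a secreted glycoprotein of several early neuron types, stood at a log2 change of 3.60 (SE 0.71, adjusted p = 0.000488), NTRK2, a neurotrophin receptor, 3.19 (SE 0.57, adjusted p = 0.00017), and GAD2, an enzyme of GABA synthesis, 1.94 (SE 0.53, adjusted p = 0.0099). RELN and NTRK2, with 15 and 30 control counts, passed the filter on low counts mainly through the knockout libraries. The list's counts are thus a description of the genes that passed. ACKR3, a chemokine receptor of migrating interneurons, had 1.62 (SE 0.36, adjusted p = 0.00161). SST, the peptide of a class of LHX6-dependent interneurons in mouse, was lower, at 4.92 ± 3.64 CPM in knockouts and 13.8 ± 2.02 CPM in controls (SD, n = 6 each; log2 fold change -1.49, SE 0.45, adjusted p = 0.0179). CHAT and SLC18A3, which define cholinergic neurons, had 0 counts in knockouts and 1 and 0 in controls. With the strand percent as a covariate 3 rose and none fell, and GAD2, ACKR3 and SST did not pass.

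NKX2-1 also marks the hypothalamus and the lung and thyroid. Of 19 hypothalamic genes, 5 were tested and 4 were higher, beside 11.0% of all features tested. SIX3 is shared with the MGE list, and the median log2 fold change was 1.32. NKX2-4, a paralogue of NKX2-1 expressed with it in the mouse hypothalamus, averaged 7.36 ± 2.57 CPM in knockouts and 0.445 ± 0.381 CPM in controls (SD, n = 6 each; log2 fold change 3.97, edgeR adjusted p = 9.25e-05). NKX2-2, a homeodomain factor of ventral neural tube, stood at a log2 change of 1.32 (SE 0.34, adjusted p = 0.00536), and BMP7, a secreted growth factor, 1.06 (SE 0.37, adjusted p = 0.0374). With the strand percent as a covariate 2 of the 5 passed, and NKX2-2 and BMP7 did not. BMP7 lost its call in 16 of 25 alternatives (adjusted p up to 0.655) and NKX2-2 in 6 (up to 0.579). Of 18 lung and thyroid genes, 5 were tested and 2 were higher, SFTA3 and NAPSA (log2 fold change 1.12, SE 0.40, adjusted p = 0.045), beside 11.0% of all features tested. NAPSA lost its call in 18 of 25 alternatives, the covariate among them, with edgeR or DESeq2 adjusted p up to 0.748. SFTA3, with 36 control counts, passed the filter on low counts mainly through the knockout libraries. The lung surfactant gene SFTPC had 1 count in knockouts and 8 in controls, and the thyroid factor PAX8 had 7 counts in knockouts and 93 in controls. Within the NKX2 family, NKX2-1, NKX2-4 and NKX2-2 were the 3 of 7 tested and all 3 were higher, beside 11.0% of all features tested. NKX2-1 is the subject here and is not counted as separate support. It and NKX2-4, with 13 and 8 control counts, passed the filter on low counts through the knockout libraries.

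The Hedgehog pathway, which induces NKX2-1 in mouse, gave no called gene among 8 tested of 13, with a median log2 fold change of -0.05. The receptor and target PTCH1 stood at 0.07 (SE 0.20, adjusted p = 0.85), and GLI1, a target and effector, at -1.68 (SE 0.87, adjusted p = 0.20). GLI2, below the filter, had 22 counts in knockouts and 145 in controls. Of 6 features tested opposite these genes 5 were lower, among them ENSG00000271155 opposite PTCH1. It averaged 864 ± 283 CPM in knockouts and 1460 ± 114 CPM in controls (SD, n = 6 each, log2 fold change -0.76, SE 0.16, edgeR adjusted p = 0.00149). SHH, the ligand, was below the filter and is named after its values were seen. It ranged from 2.78 to 20.2 CPM with a median of 15.2 CPM in knockouts, and from 0 to 1.92 CPM with a median of 0.310 CPM in controls. All 6 knockout libraries lay above all 6 control libraries, with 250 counts in knockouts and 10 in controls (two-sided exact permutation p = 0.00216).

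Of the other LIM homeodomain genes and cofactors, 6 of 18 listed were tested and 3 were higher, beside 11.0% of all features tested, with a median log2 fold change of 1.11. LHX5, a factor of the early forebrain, averaged 25.3 ± 6.78 CPM in knockouts and 3.64 ± 1.34 CPM in controls (SD, n = 6 each; log2 fold change 2.79, edgeR adjusted p = 4.69e-07). LHX1 stood at a log2 change of 2.56 (SE 0.64, adjusted p = 0.0048) and LHX4 one of 0.61 (SE 0.15, adjusted p = 0.00408). With 33 control counts, LHX1 passed the filter on low counts mainly through the knockout libraries. LHX1 lost its call in 5 of 25 alternatives, the strand percent as a covariate among them (adjusted p up to 0.177), and LHX4 in 4 (up to 0.844). The MGE cofactor gene LMO3 stood at 1.61 without passing.

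Marker genes of other cell types moved with the same contrast, in which 1256 of all 11408 features tested (11.0%) were higher and 1218 lower. Of 12 dorsal telencephalon genes, 5 were tested, EMX2, a dorsal homeodomain factor, was higher (log2 fold change 1.30, SE 0.28, adjusted p = 0.00131) and NEUROD1, a neurogenic factor, lower (-3.76, SE 0.60, adjusted p = 3.68e-05). Of 12 neural progenitor markers, 11 were tested and 5 were higher, among them SOX1 (1.83, adjusted p = 0.0029), HES5 (1.78, 4.36e-05), SOX3 (1.68, 0.00375) and NES (1.30, 1.69e-05), and their summed level was 599 to 1008 CPM in knockouts and 310 to 533 CPM in controls. With the strand percent as a covariate 2 of the 11 passed. Of 7 neural crest markers, 4 were tested and 2 were lower, TFAP2B (-4.44, SE 0.65, adjusted p = 1.19e-05) and SOX10 (-2.85, SE 0.46, 0.000566). With 8 knockout counts, TFAP2B passed the filter on low counts mainly through the control libraries, as did NEUROD1 with 17. The summed neural crest level was 14.2 to 42.0 CPM in knockouts and 83.7 to 122 CPM in controls, with PAX7 at 0 throughout. The endoderm list had 0 of 2 tested members called, with SOX17 at 0 in all day 14 libraries and sums of 12.3 to 38.2 CPM in knockouts and 16.3 to 27.6 CPM in controls, and the pluripotency list had 0 of 4. The part of these shifts in the counts under NKX2-1, NKX2-1-AS1 and LHX6 was not tested.

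**Figure D5:**
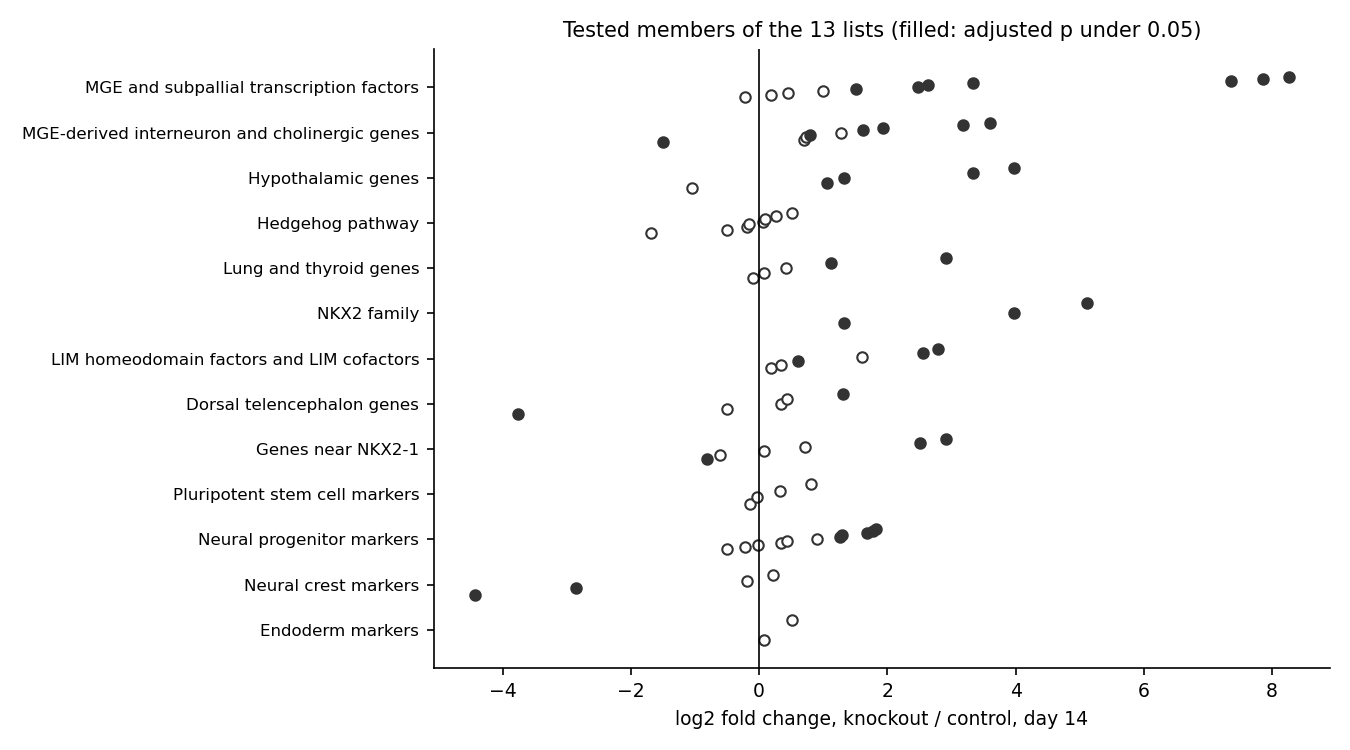
Log2 fold change, knockout over control at day 14, of each tested member of the 13 gene lists (circles, filled where the edgeR adjusted p was under 0.05). The DLX genes stood farthest to the right, from 7.37 to 8.27, where DLX2 at 8.27 has no control count and its estimate depends on the prior count, and TFAP2B and NEUROD1 stood farthest to the left.

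Because most counts at overlapping genes stood under the antisense name, the features opposite the listed genes were counted as well. Over all 11408 features tested, 1256 (11.0%) were higher and 1218 lower. Opposite the MGE and subpallial factors 6 features were tested, 1 was higher and 2 lower. Opposite the Hedgehog genes 6 were tested, none was higher and 5 were lower, with a median log2 fold change of -0.90. Opposite NKX2-2 stood NKX2-2-AS1, with a log2 fold change of 1.13 (SE 0.15, edgeR adjusted p = 1.85e-06), and opposite EMX2 stood EMX2OS, with 1.64 (SE 0.40, adjusted p = 0.0119), both named after their values were seen. In the NKX2 family the 2 tested opposite features were higher, NKX2-2-AS1 and NKX2-1-AS1, of which NKX2-1-AS1 is the subject here and no separate support.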

How the data were processed

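Poly(A) RNA of 24 libraries was sequenced by Click-Seq, which ends cDNA with azido-nucleotides in place of fragmenting the RNA, per the labels' protocols. Whole-number read counts per feature were deposited by the authors. The submitters' processing notes name bcl2fastq 2.20.0, STAR 2.7.9a, Subread 2.0.1, DESeq2 1.34.0 and the build GRCh38. For the counting, the annotation release and the strand setting were not given in the sources used here.

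Counts were fitted with edgeR 4.0.16 in R 4.3.3 (TMM scaling, filterByExpr, robust quasi-likelihood test) over all features, with Benjamini-Hochberg adjusted p under 0.05 as the threshold. Day 14 and day 0 genotype comparisons used the libraries of that day, line comparisons the 12 libraries of day 14, and comparisons of days all 24. Values in CPM come from those fits. Members below the filter were tested alone with two-sided exact permutation tests over libraries (SciPy 1.17.1). Likeness was Pearson's r of log2(CPM + 1). Counting intervals (95%) and the floor of 3 counts cover counting error only. DESeq2 1.42.0, RLE scaling, no filter, a replicate block, sums and means per line, 1 fit of all libraries, the strand percent as a covariate and leaving out each library or line were alternatives. Gene positions come from GENCODE 29. Scripts were tested on simulated data. The members and lists were chosen with earlier results of these data known. From each list the text gives the genes with the largest called change, up to 4 in each direction, and other genes are named to describe the list or after their values were seen.

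Replicate letters A to C did not pair the day 14 libraries across lines. At day 0 the letters were not compared across lines, but in every line replicates B and C were more alike than either was to A. A replicate block at day 0 left 0 features called by edgeR and 169 with an unadjusted p under 0.05, against 99 without it. No 2 replicates of a group differed by as little as sampling noise. Some genes of the lists are counted but not reported here by name.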

Additional observations from a re-analysis of the deposited data

Results flagged for a closer look

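In 22 groups of 6 libraries, 6 had a library that stood apart from the others of its group by Dixon's criterion. Chance meets this criterion in about 1 in 20 groups where values are normally distributed. The groups flagged for NKX2-1, LHX6, LHX8 and NKX2-8 held low counts with libraries at 0, so the 6 of 22 are not set against that rate. Among day 14 knockouts, knockout line 2 replicate C was the highest library for LHX8, at 7.41 CPM against 0 to 1.00 CPM in the others, and for NKX2-8, at 9.26 CPM against 0 to 1.67 CPM. Knockout line 1 replicate B was the lowest for SFTA3, at 8.45 CPM against 14.3 to 17.0 CPM. Among day 14 controls, control line 1 replicate C was the highest for NKX2-1, at 2.33 CPM against 0 to 0.863 CPM. Control line 2 replicate A was the highest for NKX2-1-AS1, at 29.02 CPM against 8.22 to 14.3 CPM, and still lay below every knockout library. Control line 2 replicate B was the highest for LHX6, at 1.15 CPM against 0 to 0.332 CPM.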

How the results depend on the processing

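NKX2-1 and NKX2-1-AS1 kept their direction and stayed past the threshold at day 14 under every alternative run, with log2 changes of 4.18 to 5.90 for NKX2-1 and 3.75 to 4.54 for NKX2-1-AS1. The number of features called between genotypes at day 14 was 241 with all 24 libraries in 1 fit, 1385 with the strand percent as a covariate, 1552 when control line 1 was left out and 1266 when control line 2 was, against 2474. With no filter, 13 features were called between genotypes at day 0 and 8739 between days in knockouts. Between the knockout lines DESeq2 called 335, and leaving out 1 library gave 109 to 289. Between the control lines leaving out 1 library gave 10 to 25. The interaction called 502 in DESeq2, 792 with no filter and 91 to 259 with 1 library left out, against 161. The difference in the NKX2-1 percent of locus counts ranged from 2.61 to 5.46 percentage points with 1 library left out. Between days, RLE scaling moved the median log2 change over all features to 1.04, against 0.65 with TMM, in knockouts, and to 0.83, against 0.60, in controls. It called 4123 higher and 1405 lower in knockouts, against 3265 and 1812 with TMM, and 3654 higher and 1349 lower in controls, against 3115 and 1584. The causes were not tested. The replicate block called 2256 features at day 14 (NKX2-1 adjusted p = 7.69e-08). Same-letter day 14 libraries of different lines had correlations of -0.236 to 0.144, so the letters did not pair the day 14 libraries. Without the 4 knockout libraries highest in strand percent, added after seeing the data, 1935 features were called. Low counts limit LHX6 and LHX8 throughout.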
